A study of Mus musculus with 9 samples.

Results

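Mitochondrial ribosomal protein genes were described in macrophages sorted from the visceral fat of mice, in 9 RNA libraries. Of these, 5 came from Nucb2-/- animals (KO) and 4 from wild-type animals (WT), and the labels give C57BL/6 as the strain background of both. They were taken as every gene of the table whose symbol starts with Mrpl or Mrps followed by a digit. This gave 77 of 14905 genes, 48 named for the large subunit (Mrpl) and 29 for the small subunit (Mrps). The rule used no measured value, and each of the 77 was tested. The filter on low values could remove no gene, since the table holds no value under 1. Of the 78 protein-coding genes with such a symbol in the GENCODE M21 annotation, 77 were in the table, and Mrpl58, under that symbol, was not; the table lists it under its older name Ict1. The cells had been sorted as F4/80 and CD11b double-positive. The labels give no diet, age or sex, nor do they tie each library to a separate animal. The series title speaks of obesity, and the deposited table of all 9 libraries is marked HFD, the usual abbreviation of high-fat diet. If it stands for that here, both genotypes share the diet. As no label ties a library to an animal, the tests see only library-to-library spread, part of which may be technical.

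Mitochondria keep their own ribosome, which descends from that of bacteria. It translates the few proteins still encoded in mitochondrial DNA, all of them membrane subunits of the respiratory chain and the ATP synthase. Its RNA comes from mitochondrial DNA, but every protein of it is encoded in the nucleus, made in the cytosol and imported. Part of these proteins have a counterpart in bacterial ribosomes, and the others were added in mitochondria. The large subunit joins amino acids and releases the chain at the inner membrane, and the small subunit binds the messenger RNA and reads its codons. Symbols do not always give the place of a protein: Mrps30 and Mrps18a are built into the large subunit, and the product of Mrps36 works in the oxoglutarate dehydrogenase complex.

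The series as a whole set the following frame. The step between values of a library shows what 1 read is worth, and by it 6 deeper libraries held 74937721 to 85200104 reads. The 3 shallower ones, KO replicate 5 with WT replicates 3 and 4, held 51148956 to 55004978. Nucb2, the disrupted gene, spanned normalized counts of 1165 to 1752 across KO and 3311 to 5233 across WT libraries. Its log2 difference was -1.52 (SE 0.17, adjusted p = 0.00054 by limma). All 12 macrophage markers searched were measured, and Adgre1, the gene of F4/80, stood at 85568 to 118970.0 over the 9 libraries. In the same libraries the summed markers of endothelium were 6916 to 13528 in KO and 4261 to 6375 in WT, those of mast cells, eosinophils and basophils 1852 to 3794 and 6243 to 11096, and those of mesothelium 7699 to 25917 and 3323 to 11846. Larger sums came from fibroblast markers, 277611 to 431536 in KO and 193638 to 323435 in WT, and adipocyte markers, 38412 to 52051 and 41848 to 61541. The adipocyte sum rests on a minority of its 5 markers. Their median mean count was 172.5, and Plin1 was at the table's lowest value in every WT library. B cell markers summed to 2117 to 2814 and 1957 to 4013, and T and NK cell markers to 211 to 723 and 349 to 620. The macrophage markers summed to 1539009 to 1709595 in KO and 1583697 to 1776644 in WT. The groups overlapped in each of these further sums. In bulk libraries fewer cells of one type and less RNA per cell cannot be told apart.

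The promoters of these genes were described by short motifs, none of which was held by most of them. Promoters, 250 bases before to 50 after a gene's start, were found in the RefSeq table (GRCm38.p6) for 68 of the 77. They were searched on both strands for 7-letter cores of motifs known from promoters of nuclear genes for mitochondria: GCATGCG for NRF1 (nuclear respiratory factor 1), CCGGAAG for ETS factors such as GABP, and ATGGCGG for YY1. Each core can overlap its own reverse complement, as the NRF1 core does in CGCATGCG, and such a stretch counts as 2 matches. The ETS core was held by 24 of the 68 (35.3%), against 16.4% of the 11283 promoters of genes measured here and 9.12% of all 27025 promoters in the table. The YY1 core was held by 13 (19.1%), against 7.55% and 4.19%, and the NRF1 core by 8 (11.8%), against 6.12% and 3.64%. By subunit, the NRF1 core was in 7 of 42 Mrpl promoters and 1 of 26 Mrps promoters, and the ETS core in 13 and 11. Cytosolic ribosomal protein genes held the ETS core in 37.7% of 61 promoters and nuclear respiratory chain genes in 26.1% of 69, so the ETS share among Mrp genes lay between those of these gene groups. So did the NRF1 share, with 6.56% and 14.5%, while the YY1 share was above both, at 14.8% and 14.5%. These differences were not tested. A match is a description of the letters, not a binding site.

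The following 4 stretches reach from 150 bases before to 30 after the start, on the strand of the gene, with matches to any of the 3 cores in capitals. Mrpl22 was the only member with all 3 cores (chr11:58171514-58171693, plus strand), Mrpl32 had the most NRF1 matches (chr13:14613008-14613187, minus strand), Mrpl33 had the highest normalized count (chr5:31613801-31613980, plus strand), and Mrps12 had the largest positive difference between genotypes (chr7:28741792-28741971, minus strand).
Mrpl22: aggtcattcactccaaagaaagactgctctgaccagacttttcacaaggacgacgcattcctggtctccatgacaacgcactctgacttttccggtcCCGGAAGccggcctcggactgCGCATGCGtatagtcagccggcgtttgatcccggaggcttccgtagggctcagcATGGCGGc
Mrpl32: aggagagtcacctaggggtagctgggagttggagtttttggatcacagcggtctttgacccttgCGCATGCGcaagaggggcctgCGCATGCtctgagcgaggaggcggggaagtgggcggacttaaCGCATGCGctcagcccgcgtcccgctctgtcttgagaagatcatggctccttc
Mrpl33: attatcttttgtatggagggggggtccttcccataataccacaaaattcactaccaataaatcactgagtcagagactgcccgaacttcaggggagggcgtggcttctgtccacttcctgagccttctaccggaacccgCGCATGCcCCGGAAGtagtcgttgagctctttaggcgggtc
Mrps12: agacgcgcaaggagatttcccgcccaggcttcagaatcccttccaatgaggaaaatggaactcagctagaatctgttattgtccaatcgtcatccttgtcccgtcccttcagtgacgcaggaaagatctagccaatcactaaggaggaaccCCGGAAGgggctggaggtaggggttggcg
In Mrpl22 the ETS core precedes the NRF1 core, and the YY1 core begins at base 22 from the start. Mrpl32 has 3 separate NRF1 stretches before its start. In Mrpl33 the NRF1 and ETS cores are nearly joined, directly at the start, and in Mrps12 a single ETS core lies at the start itself.

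The position of the matches differed between the cores. Of 28 ETS matches, 25 lay between 100 bases before and 50 after the start. Of the 13 YY1 matches, 12 lay 2 to 30 bases after the start, 11 of them on the strand of the gene. The letters of this core begin with ATG, so a match there can include a start codon. Members with and without a core had near-equal differences between genotypes for ETS (median log2 difference -0.085 in 24 and -0.084 in 44). The medians were -0.052 and -0.098 for YY1, and 0.018 in the 8 with the NRF1 core and -0.11 in the 60 without it.

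All 77 genes were detected in each library. The lowest single value stood for 51 reads, and no member was at the floor of the table in any library. Their mean normalized counts (read counts divided by 1 factor per library) ran from 164 to 9586, with a median of 2158, against 648.6 over all genes, and 66 of the 77 had a mean of at least 1000. Per kilobase of annotated exons, the measure that allows levels of different genes to be compared, the median was 859 in the members and 138 over all genes. A typical member was at percentile 81.5 of the table by this measure. Together the 77 genes took 0.286% to 0.314% of all normalized counts across the KO group and 0.296% to 0.31% across the WT group.

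**Figure D1:**
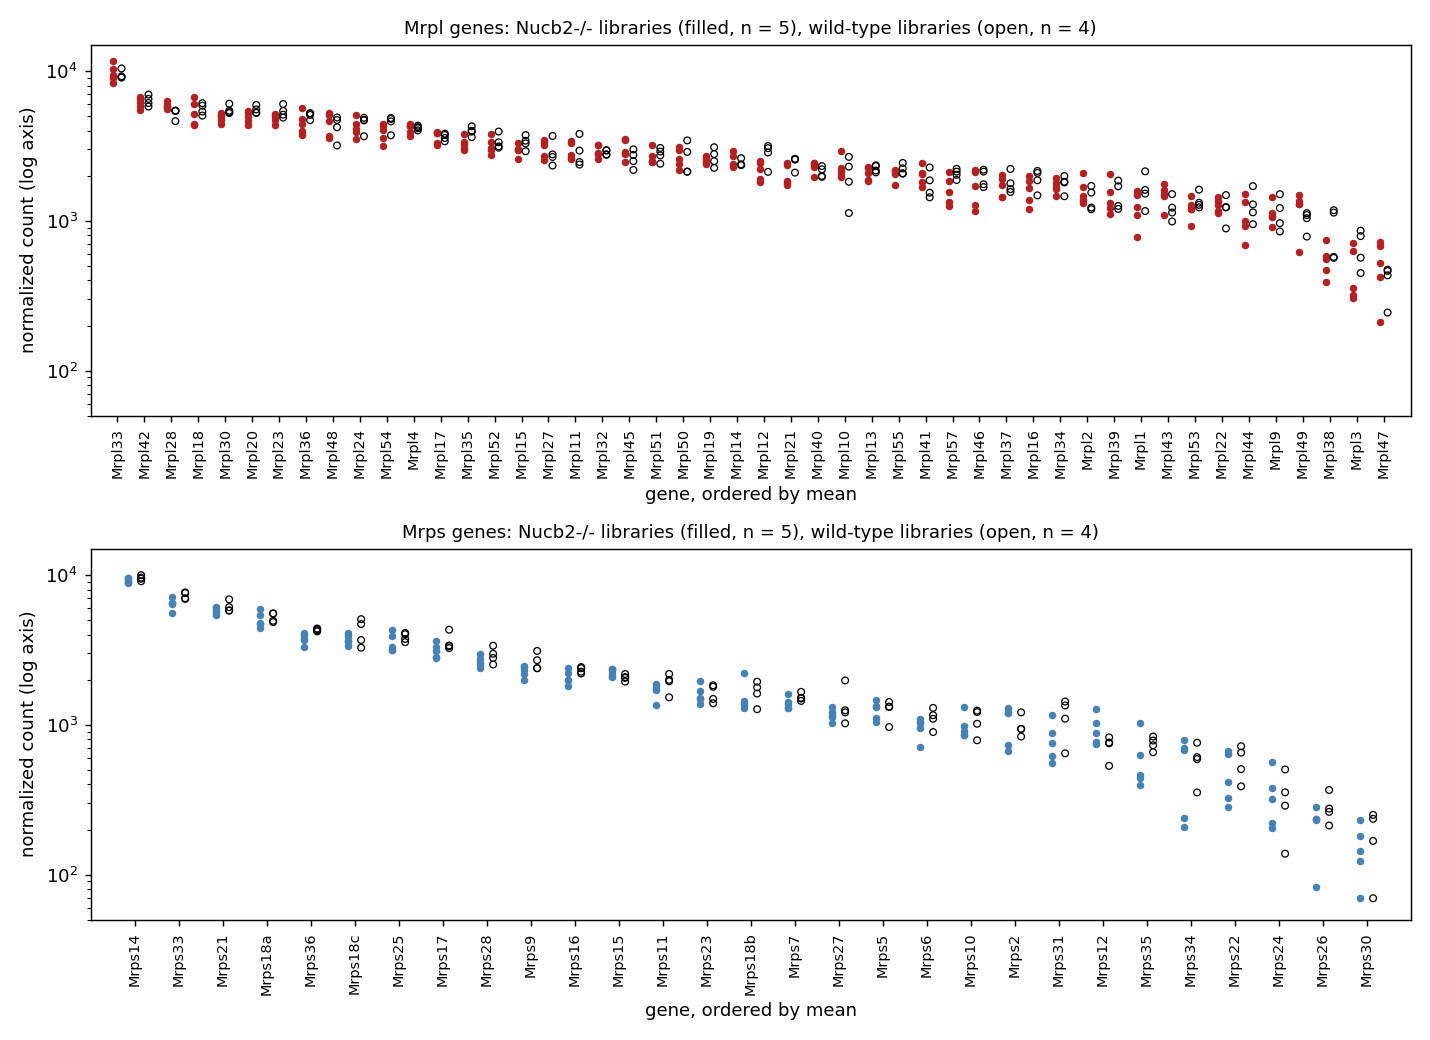
Normalized count (log axis) of each gene in each library, Mrpl genes above and Mrps genes below, ordered by mean; filled points are the 5 KO libraries and open points the 4 WT libraries. The genes at the left lie within narrow bands in both groups, and those at the right, such as Mrps30 and Mrps24, spread widely within each group.

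The highest normalized counts belonged to Mrpl33, a small protein of the large subunit on chromosome 5 from 31596935 to 31664384 (mm10), and Mrps14, which lies near the head of the small subunit and is encoded on chromosome 1 from 160195215 to 160202170. Mrps14 was measured at 9189.6, 9551, 8898, 9493 and 8916 in KO replicates 1 to 5 and at 9442, 9088, 9973 and 9604 in WT replicates 1 to 4. The groups interleave, and the mean was 9209.6 ± 309 in KO (SD, n = 5) and 9527 ± 367 in WT (SD, n = 4). Mrpl33 had 8284 to 11576 in KO and 9057 to 10404 in WT, again overlapping. Mrps33, Mrpl42, Mrps21 and Mrpl28 followed, with mean counts of 6794, 6244, 5951 and 5599.

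Per kilobase the order was another one. Mrps21, with 739 bases of annotated exons, was first at 8053, then Mrpl54 at 5037, Mrpl36 at 4097 and Mrps33 at 4075. Mrpl33 came to only 1309 on this scale, as its annotated exons add up to 7326 bases. At the low end stood Mrps30 at 24.6, Mrps26 at 55.8, Mrps35 at 76.8 and Mrpl3, a large subunit protein with a bacterial counterpart, at 83.1. Exon lengths are unions over all annotated transcripts, so genes with long rarely used exons are placed too low. The median per kilobase was 1179 for Mrpl genes and 673 for Mrps genes; as plain normalized counts the medians were 2470.0 and 1589.

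The spread between libraries of one genotype followed the level. The within-group coefficient of variation (pooled SD over mean) had a median of 14.6% in the members and 31.9% over all genes. Among members with a mean of 3000 to 10000 it was 8.88% (24 genes) beside 13.4% for the 2037 genes of that range. At a mean of 1000 to 3000 it was 15.5% (42 genes) beside 20.8%, and at 100 to 1000 it was 34.6% (11 genes) beside 40.2%. Counting error alone at the median depth of these ranges would give 1.41%, 2.4% and 5.03%, so most of the spread lay above it in each range.

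The steadiest members were Mrps14 (3.58%), Mrps15 (5.55%), a small subunit protein with a bacterial counterpart, and Mrpl28 (5.72%), and the most variable were Mrps24 (45%), Mrps30 (43.5%) and Mrps34 (43.4%). Mrps24, at the messenger RNA entry of the small subunit, stood at 219.7, 204, 319, 564 and 381 in KO replicates 1 to 5 and at 138, 289, 354 and 503 in WT replicates 1 to 4, so both groups covered the same wide range. For Mrps34, a mitochondria-specific small subunit protein, the values were 208, 238, 682, 699 and 796 in KO and 354, 590.4, 759 and 608 in WT. KO replicates 1 and 2 were low and the other 3 were high. Mrps34 shares 77.8% of its annotated exon bases with Mapk8ip3 on the other strand and Nme3 on the same one. The division of reads between overlapping genes is not given in the sources used here, which makes single values of such genes uncertain. In 10 of the 77 members at least 20% of the exon bases overlap another gene: Mrpl19, Mrpl24, Mrpl43, Mrpl47, Mrpl53, Mrps18b, Mrps18c, Mrps25, Mrps27 and Mrps34. Of these, only Mrpl53, Mrps18c and Mrps34 overlap a gene on the same strand.

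**Figure D2:**
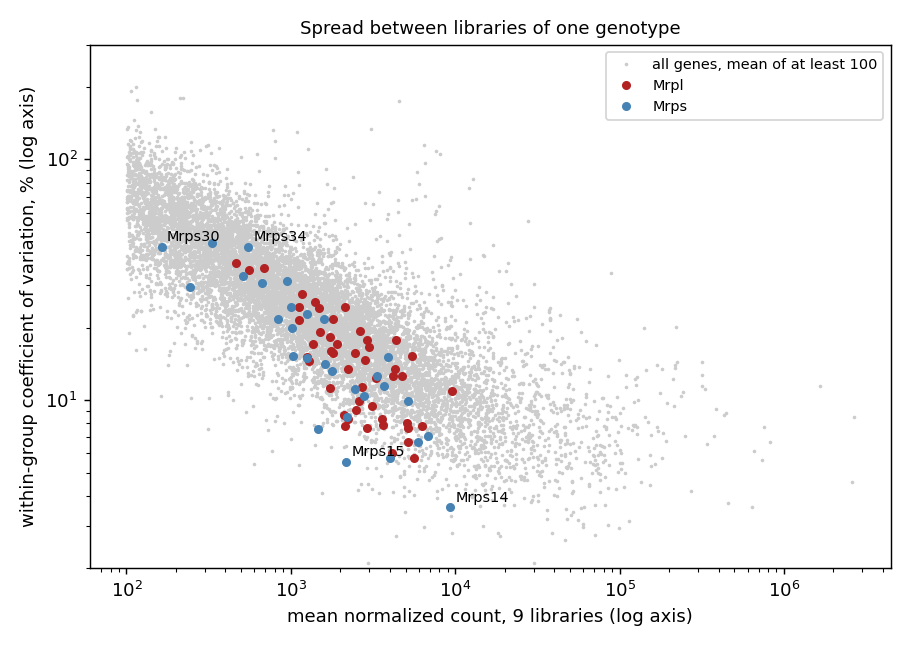
Within-group coefficient of variation (%, log axis) against mean normalized count over the 9 libraries (log axis); grey points are all genes with a mean of at least 100, red points Mrpl genes and blue points Mrps genes. Members of higher level spread less, from 43.5% for Mrps30 to 3.58% for Mrps14.

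The comparison of KO with WT asked whether transcripts of these macrophages differ when Nucb2, which encodes nucleobindin-2, is lost. No mitochondrial ribosomal protein gene passed the test. In limma on log2 of the normalized count plus 1, 0 of the 77 had an adjusted p under 0.05, with adjustment over all 14905 genes, of which 0.309% passed (0.181% higher and 0.127% lower in KO). The adjusted p of the members lay between 0.503 and 0.999. At an unadjusted p under 0.05 there were 2 of 77 (2.6%), Mrpl35 and Mrpl12, both lower in KO, against 9.14% of all genes (3.78% lower and 5.37% higher). With limma-voom on the recovered reads both counts were 0. KO and WT ranges did not overlap in 2 members, Mrpl28 (higher in KO) and Mrps36 (lower in KO), that is 2.6%, against 3.15% of all genes (1.55% higher and 1.6% lower).

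The intervals say how large a difference these libraries leave room for. In 67 of the 77 the 95% interval of the log2 difference lay inside -1 and 1, so a doubling or its reverse fell outside it. That was so for 48.9% of all genes. In 53 of 77 the interval excluded even a 1.5-fold difference in either direction, as in 28.0% of all genes. The median standard error was 0.16 in the members and 0.34 over all genes. The members also had higher levels than all genes. Of all 2888 genes in the middle-half range of the members' means, 2708 had intervals within 2-fold and 1597 within 1.5-fold. Their median standard error was 0.19. For the 39 members in that range the counts were 39 and 30, with a median standard error of 0.16. The tightest interval belonged to Mrps14, -0.22 to 0.12, and the widest to Mrps30, -1.50 to 1.05.

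**Figure D3:**
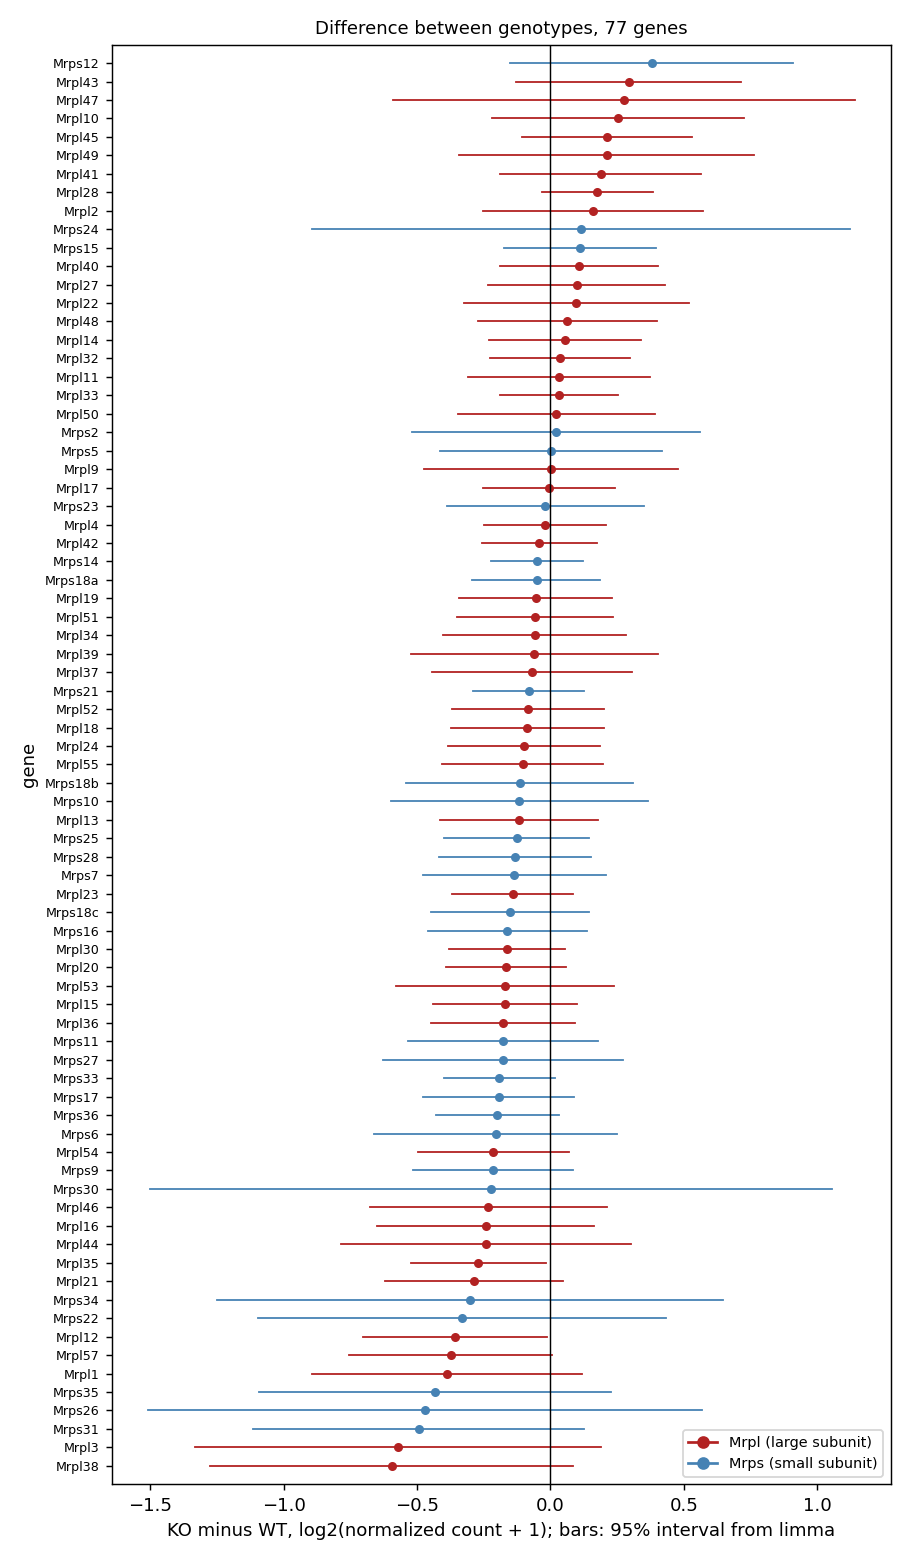
Difference in log2(normalized count + 1) between KO and WT for each of the 77 genes, with its 95% interval from limma; red marks Mrpl genes, blue Mrps genes. The differences run from -0.59 (Mrpl38) to 0.38 (Mrps12); the intervals of Mrpl35 and Mrpl12 alone leave out 0, before any adjustment for multiple tests.

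Among members with a lower mean in KO, Mrpl38, a mitochondria-specific protein of the large subunit's central protuberance on chromosome 11 from 116131817 to 116138868, had the largest difference. Its counts were 584, 472, 390.2, 749.7 and 552 in KO replicates 1 to 5 and 566, 1135, 1177 and 574 in WT replicates 1 to 4. WT replicates 2 and 3 were high, and the other 2 WT libraries lay within the KO range. The log2 difference was -0.59 (SE 0.32, limma adjusted p = 0.61). Mrpl3, whose loss of function in humans affects the heart, had 303, 709.5, 319, 629 and 355 in KO and 448, 567, 791 and 859 in WT, with KO replicates 2 and 4 inside the WT range. It differed by -0.57 (SE 0.36, limma adjusted p = 0.67). Mrps31, Mrps26 and Mrps35, all mitochondria-specific proteins of the small subunit, differed by -0.49, -0.47 and -0.43. Their 95% intervals all included 0. Mrps26 rests on KO replicate 4, which had 82.2 normalized counts, and without it the difference was -0.16. Without the same library Mrps35 was at -0.66, and without WT replicate 4 Mrps31 was at -0.74.

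The 2 members with the smallest p belong to the large subunit. Mrpl35, which has a bacterial counterpart, was measured at 3788, 3062, 3338, 3280.2 and 2965 in KO replicates 1 to 5 and at 4273, 3621, 3995 and 3939 in WT replicates 1 to 4. Only KO replicate 1 reached the WT range. The KO mean was 3286 ± 319 (SD, n = 5) and the WT mean 3957 ± 268 (SD, n = 4). The log2 difference was -0.27 (SE 0.12, limma adjusted p = 0.5). Mrpl12, which forms the stalk that recruits translation factors and has also been described as binding the mitochondrial RNA polymerase, had 2496, 1898, 2226, 2441 and 1814 in KO and 2122, 3053, 3158 and 2858 in WT. WT replicate 1 was low, inside the KO range, and the other 3 WT libraries were above all KO libraries. Its log2 difference was -0.36 (SE 0.16, limma adjusted p = 0.53). Mrpl57 differed by -0.37 (adjusted p = 0.55) and Mrpl1, at the stalk where spent tRNA leaves, by -0.39 (adjusted p = 0.67, limma). For Mrpl1 the value was 0.009 in the 6 deeper libraries alone, -0.23 without KO replicate 5 and -0.24 without WT replicate 4.

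In the opposite direction Mrps12, part of the decoding centre of the small subunit on chromosome 7 from 28739641 to 28741820, had the largest value. Its counts were 1269, 742, 773, 1026 and 887 in KO replicates 1 to 5 and 761, 532, 753 and 824 in WT replicates 1 to 4. KO replicates 1, 4 and 5 were above all WT libraries and the other 2 were not. The difference was 0.38 (SE 0.25, limma adjusted p = 0.69). Without WT replicate 2 it came to 0.24. Mrpl43, Mrpl47, Mrpl10, Mrpl45, Mrpl49 and Mrpl41 followed with 0.29, 0.28, 0.25, 0.21, 0.21 and 0.19, at limma adjusted p of 0.70 to 0.86. This order is not stable. Mrpl49 was at 0.43 without KO replicate 1, its one low KO library, and at 0.12 without KO replicate 4 or 0.095 without WT replicate 2. Mrpl47 was at 0.56, 0.12 or 0.14 without KO replicate 1, 2 or 5, at 0.052 without WT replicate 4, and at -0.056 in the 6 deeper libraries alone. Mrpl10 was at 0.16 without KO replicate 2, at 0.007 or 0.42 without WT replicate 2 or 3, and at -0.35 in the 3 shallower libraries. Mrpl41 was at 0.12 without KO replicate 1 and at 0.094 or 0.32 without WT replicate 2 or 3, and Mrpl45 at 0.13 without WT replicate 2. Mrpl10 carries Mrpl12 on the stalk, so 2 partners of 1 structure had means on opposite sides of 0, neither past the test. Mrpl45 holds the ribosome to the inner membrane.

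Mrpl28, with a bacterial counterpart in the large subunit, was the only member above 0 whose groups did not overlap. It was measured at 5948, 5876, 6269.6, 5606 and 5779 in KO replicates 1 to 5 and at 4629, 5439.7, 5419.8 and 5422 in WT replicates 1 to 4. WT replicate 1 lay well under the other WT libraries, which were close together. The difference was 0.18 (SE 0.10, limma adjusted p = 0.62). For Mrps36, on chromosome 13 from 100735955 to 100744659, KO libraries had 4076, 3696, 3955, 3764 and 3301 and WT libraries 4276, 4346, 4204 and 4392. The 4 WT libraries lay within a narrow band above all KO libraries, and the difference was -0.20 (SE 0.11, limma adjusted p = 0.61). The other proteins that sit outside the small subunit despite their symbol had -0.052 (Mrps18a) and -0.22 (Mrps30), with groups that overlapped widely. Both had the other sign in some settings: Mrps18a was at 0.023 after scaling to the total, and Mrps30 at 0.025 without KO replicate 2.

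Large and small subunit genes were then set side by side. Of 48 Mrpl genes 30 had a difference below 0, with a median of -0.059, and of 29 Mrps genes 24, with a median of -0.15. Over all genes 47.6% were below 0, with a median of 0.021. Among the 2888 genes of matched level used above for the intervals, 51.7% were below 0, with a median of -0.009. For the 39 members of that range it was 27, with a median of -0.083. The split of the Mrpl and Mrps genes moved with the scaling. After scaling to the total of the table, 43 of the 77 members were below 0 in place of 54, as were 38.3% of all genes, and the Mrpl median was above 0 (0.016) and the Mrps median at -0.076. The median of all genes rose as well on that scale, from 0.021 to 0.096, so both subunits' medians stayed below it. The gap between the subunits' medians was 0.093 on the deposited values and 0.092 on that scale. It was 0.028 in the 3 shallower libraries alone, and it has no test of its own. Assigning genes by structure, with Mrps30 and Mrps18a in the large subunit and Mrps36 left out, gave medians of -0.059 and -0.14. No Mrps gene and 2 Mrpl genes had an unadjusted p under 0.05.

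By origin, the 10 mitochondria-specific small subunit genes all had differences below 0, with a median of -0.25 and a range of -0.49 to -0.019. They were 9 of 10 after scaling to the total, and 8 of 10 in the 6 deeper libraries. They also had the lowest levels and the widest errors of the 4 classes, with a median standard error of 0.25 and a median coefficient of variation of 26.1%. Of the 16 small subunit genes with a bacterial counterpart 11 were below 0 (median -0.12). Their median was -0.061 without WT replicate 2 and -0.048 after scaling to the total. In the large subunit 18 of 29 genes with a counterpart and 13 of 20 mitochondria-specific ones were below 0, with a median of -0.058 in both classes. Scaling to the total raised the median of all genes from 0.021 to 0.096. It also turned both medians of the large subunit classes, to 0.018 with 14 of 29 below 0 and to 0.017 with 8 of 20. Leaving out 1 library gave -0.098 (without WT replicate 1) to -0.029 (without WT replicate 3) for the class with a counterpart, and -0.1 (without KO replicate 1) to -0.019 (without WT replicate 3) for the other. On the deposited scale and after scaling to the total, the medians of the 4 classes lay below that of all genes. In each of the 4 classes 0 genes passed over all genes in limma.

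Summed levels per library were compared next. The 29 Mrps genes together had 67530, 67870, 62021, 67683 and 62389 normalized counts in KO replicates 1 to 5 and 70777, 72852, 71178 and 69491 in WT replicates 1 to 4. Every KO sum was below every WT sum, and the mean was 65498 ± 3012 (SD, n = 5) against 71074 ± 1386 (SD, n = 4), or 92.2% of WT. For the 48 Mrpl genes the sums were 126038 to 141357 in KO and 131989 to 144770 in WT, with overlapping groups and a KO mean at 96.2% of WT. Sums of the nuclear respiratory chain genes stood at 92.7% of WT and those of the cytosolic ribosomal protein genes at 95.3%, both with overlapping groups, so the Mrps shift was close in size to that of the respiratory chain. The Mrps sums separated the groups with median-ratio factors too, and without Mrps30, Mrps18a and Mrps36 (53484 to 59399 against 60080 to 63489). They did not when libraries were scaled to their total, with 63788 to 69366 in KO and 66350 to 70750 in WT, or to the total without Rn45s, the ribosomal RNA precursor (63497 to 69067 and 66637 to 71558). Rn45s itself had 1198710 to 1435650 normalized counts in KO and 1840070 to 2464700 in WT. The sums of mast cell and endothelial markers given above separated the groups as well, and their part in this difference was not tested.

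Of the 29 Mrps genes Mrps33, a mitochondria-specific protein, contributed most to this difference, with 6372, 7082, 5559, 6479.8 and 6498 in KO replicates 1 to 5 and 7649.9, 6928, 7574 and 7000.4 in WT replicates 1 to 4. KO replicate 2 alone reached into the WT range. The means differed by -890 normalized counts, out of -5576 for all 29 genes, and the log2 difference was -0.19 (limma adjusted p = 0.58).

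**Figure D4:**
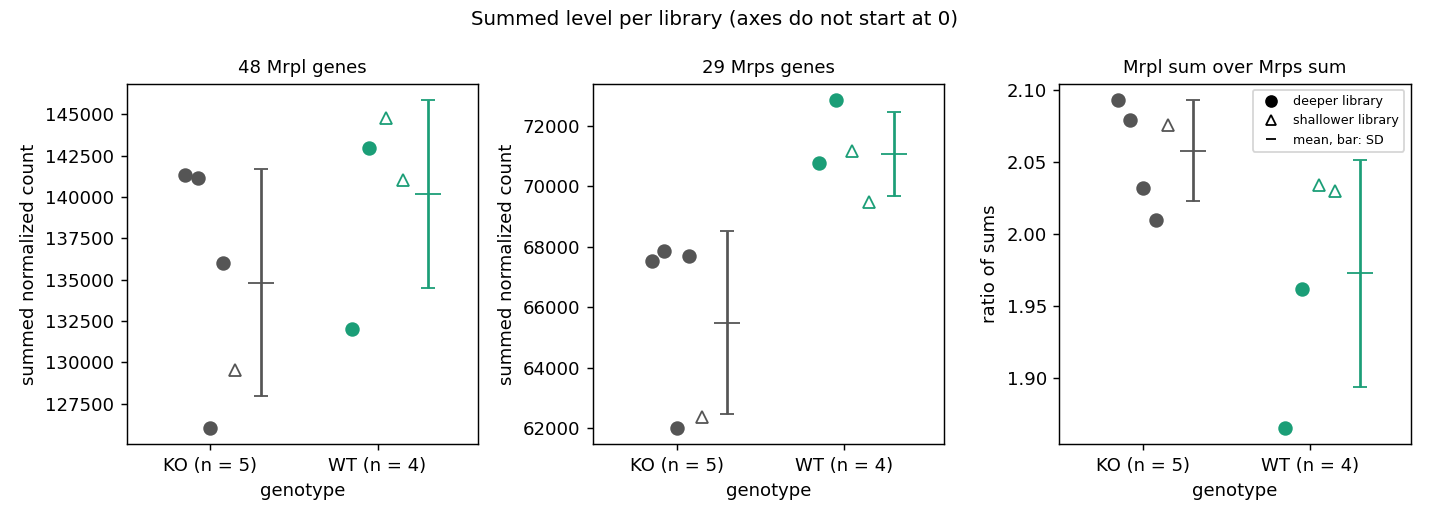
Summed normalized count of the 48 Mrpl genes (left) and the 29 Mrps genes (middle), and the ratio of the 2 sums (right), per library; circles are deeper and triangles shallower libraries, and the bars give mean and SD. The Mrps sums of the KO libraries, 62021 to 67870, all lie under those of the WT libraries, 69491 to 72852, while the Mrpl sums and the ratios overlap.

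The Mrpl sum was 2.01 to 2.09 times the Mrps sum across the KO group and 1.86 to 2.03 times across the WT group. KO averaged 2.06 ± 0.035 (SD, n = 5) and WT 1.97 ± 0.079 (SD, n = 4), with overlapping groups. WT replicate 1 had the lowest ratio. As a difference of mean log2 values, large minus small, KO libraries had 0.61 to 0.78 and WT libraries 0.55 to 0.67. Within the 6 deeper libraries the median differences were -0.046 for Mrpl and -0.16 for Mrps genes, and within the 3 shallower ones, which hold 1 KO library, -0.14 and -0.16.

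The remaining machinery of mitochondrial gene expression had 0 genes past the test in either direction. Of 6 mitoribosome proteins without the Mrp prefix, 3 had a difference below 0 (median -0.081). These 3 were Gadd45gip1 (KO mean 833 ± 253, WT mean 1181 ± 231, each with its SD), Chchd1 (3927 ± 540.0 and 4475 ± 232) and Ict1, a peptidyl-tRNA hydrolase built into the large subunit (1842 ± 177 and 2165 ± 208). Their groups overlapped, at limma adjusted p of 0.555, 0.668 and 0.677. Ptcd3, Dap3 and Aurkaip1 were above 0, by 0.33, 0.062 and 0.036. Of 25 genes for ribosome assembly and ribosomal RNA modification, 11 were below 0 (median 0.056). Eral1, a GTPase that chaperones the small subunit RNA, differed by 0.54 and Fastkd2, a binder of mitochondrial ribosomal RNA, by -0.49 (limma adjusted p = 0.36 and 0.38). Of 14 translation factors 7 were below 0 (median -0.007). Lrpprc alone had an unadjusted p under 0.05 (7.14% of the list, beside 9.14% of all genes). Its means were 740 ± 261 (KO) and 1062 ± 95.6 (WT), each with its SD, and it differed by -0.59 (limma adjusted p = 0.54). Gfm1, the elongation factor that moves the ribosome along, had a KO mean of 1281 ± 144 and a WT mean of 1631 ± 200 (SD, limma adjusted p = 0.57). Its groups did not overlap, as in 3.15% of all genes, or 1.6% lower in KO.

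The 21 genes for charging of mitochondrial tRNA had a median of 0.18, with 9 below 0. Lars2, the mitochondrial leucyl-tRNA synthetase, had a KO mean of 195317 ± 20230 and a WT mean of 236329 ± 20082 (SD), where the median level of the list was 528. It differed by -0.28 (limma adjusted p = 0.22). Whether all reads counted for Lars2 come from its messenger RNA was not tested. Yars2 differed by 2.13 at a low level (289 ± 101 and 86.1 ± 70.6, adjusted p = 0.29, limma). Of 18 genes for mitochondrial DNA copying, transcription and RNA processing 9 were below 0 (median -0.005); Pnpt1, an RNA-degrading enzyme, differed by -0.49 (limma adjusted p = 0.43). Among 9 regulators of nuclear genes for mitochondria 6 were below 0 (median -0.22), among them Gabpa, with means of 2382 ± 457 (KO) and 2775 ± 367 (WT). Nrf1, whose motif was searched above, had means of 1442 ± 240 (KO) and 1147 ± 249 (WT; limma adjusted p = 0.67).

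Against the closest gene groups, the members had lower levels and, without matching for level, a wider spread. Per kilobase the median was 4572 in 86 nuclear respiratory chain genes and 20326 in 81 cytosolic ribosomal protein genes. Median coefficients of variation were 8.79% and 5.24%, beside 14.6% in the members. These are not matched for level, which the spread followed: the median mean counts were 7835, 35991 and 2158. In the 24 members with a mean of 3000 to 10000 the median coefficient was 8.88%. Below 0 were 71 of the 86 respiratory chain genes (median -0.12) and 77 of the 81 cytosolic ribosomal protein genes (median -0.092), beside 54 of 77 members (median -0.10). After scaling to the total these medians were -0.04, -0.016 and -0.029. That scaling also raised the median of all genes, from 0.021 to 0.096. Each group's median lay below that of all genes on both scales. None of the genes in these groups passed over all genes in limma; at an unadjusted p under 0.05 there were 7 of 86 (8.14%; 6 lower and 1 higher in KO) and 7 of 81 (8.64%, all lower), beside 9.14% of all genes, or 3.78% lower. KO and WT ranges did not overlap in 4 of 86 (4.65%) and 8 of 81 (9.88%), all lower in KO, beside 3.15% of all genes, or 1.6% lower. Whether the members differ from these groups was not tested.

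**Figure D5:**
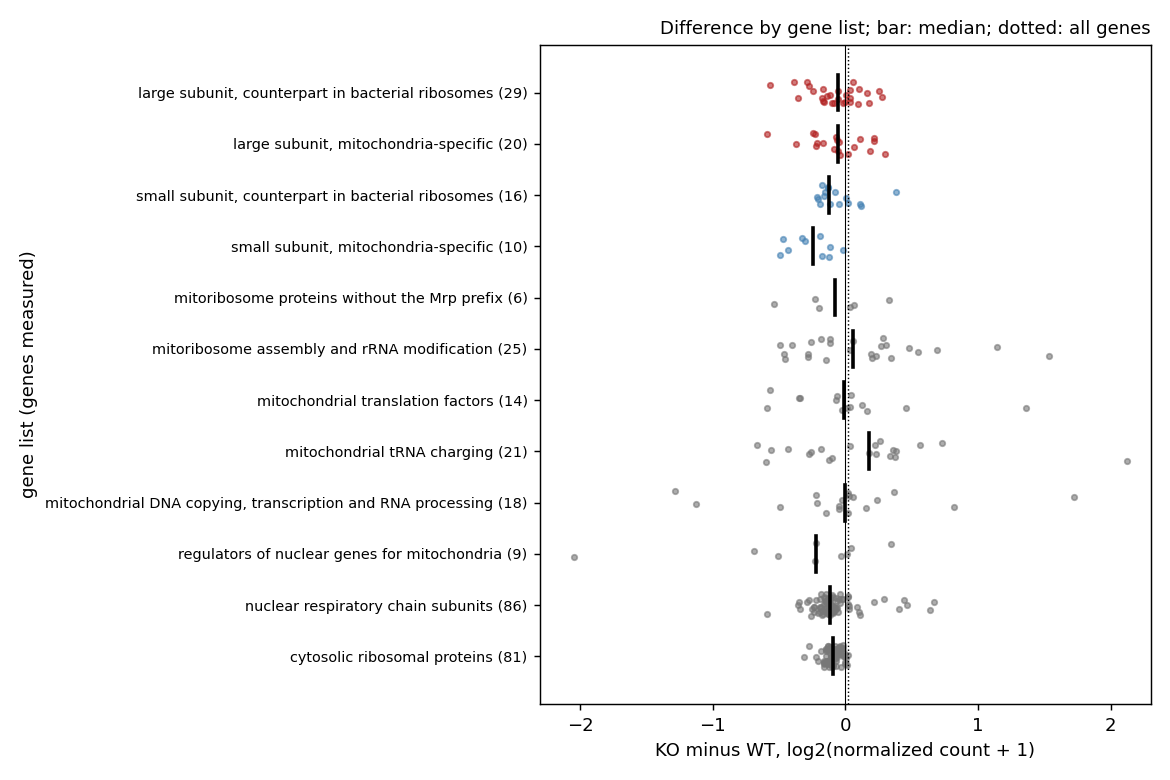
Difference in log2(normalized count + 1) between KO and WT for every measured gene of each list, with the list's median as a black bar; the dotted line is the median of all 14905 genes. The list of cytosolic ribosomal genes is narrow and centred just under 0 (median -0.092), and the lists of assembly and tRNA charging genes are wide, with medians of 0.056 and 0.18.

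The 77 genes lie on 17 chromosomes, with 10 on chromosome 11 and 8 on chromosome 17. Mrpl46 and Mrps11 are neighbours on chromosome 7, in opposite orientation, and share 173 exon bases at their starts. Mrpl46 was measured at 2182, 2121, 1276, 1719.6 and 1167 in KO replicates 1 to 5 and 1679, 2194, 1754 and 2129 in WT replicates 1 to 4, and Mrps11 at 1723, 1810.1, 1861, 1356 and 1698 and 1952, 2185, 1996 and 1525. KO replicates 3 and 5 were low for Mrpl46 and not for Mrps11, and their differences were -0.23 and -0.18 (limma adjusted p = 0.79 and 0.8).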

How the data were processed

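RNA of sorted macrophages was captured by its poly(A) tail and sequenced from strand-specific libraries, per the labels' protocols. CASAVA 1.8.2, HISAT, Partek, DESeq2 and mm10 appear in the submitters' processing notes, which assign no roles. The annotation and the use of strand were not stated there. The deposited signal is a count divided by 1 factor per library, with anything under 1 set to 1. In every library 99.4% to 99.7% of values above that floor were whole multiples of a step, within 0.1 of it. The floor kept count-model tests from being used.

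Values were analysed as log2(value + 1) by limma 3.58.1 (R 4.3.3) with a mean-variance trend and genotype as the only term, over 9 libraries, with Benjamini-Hochberg adjustment over 14905 genes at 0.05. Requiring at least 1 in 4 or more libraries removed 0 genes. The members and lists were chosen with earlier results of these data known. Named members are the 8 largest differences each way, the 6 highest and 4 lowest means, the 3 highest and 3 lowest coefficients of variation, Mrps30, Mrps18a and Mrps36, and up to 3 genes of each list by p. Others, such as Mrpl35, Mrpl46, Mrps11, Chchd1, Ict1 and those with printed promoters or named for their level per kilobase, were picked after their values were seen. Positions and exon lengths come from GENCODE M21 (GRCm38, the same build as mm10), which matched 77 of 77 members. The code was tested on simulated data. Python 3.11.15 and matplotlib 3.10.9 made the tables and figures. Alternatives were other pseudocounts, filters and scalings, limma-voom, depth class, a replicate block and leaving out each library.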

Additional observations from a re-analysis of the deposited data

Results flagged for a closer look

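Of 62 groups of 4 or 5 libraries checked for a library far from the others, 4 had one. Chance flags about 1 in 20 groups. Mrps26 was at 82.2 normalized counts in KO replicate 4, where the other KO libraries had 232.5 to 283.6, and its difference of -0.47 was -0.16 without that library. Mrpl49 was at 623.7 in KO replicate 1, against 1292.2 to 1484.7 in the other KO libraries, and its difference of 0.21 was 0.43 without that library. Mrpl28 was at 4628.9 in WT replicate 1, against 5419.8 to 5439.7 in the other WT libraries, which also lay below all KO libraries. Mrpl33 was at 10404.4 in WT replicate 2, against 9057.4 to 9215.7 in the other WT libraries.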

How the results depend on the processing

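The count of 0 members past the threshold held under every alternative that gave a test, which the 3 shallower libraries alone did not. The lowest adjusted p of a member (limma) was between 0.25 (without WT replicate 1) and 0.67 (replicate block). Over all genes the count was 46. It was 0 in the 6 deeper libraries and 0 with the replicate block, so a count of 0 members adds nothing in these 2 settings. When 1 library was left out it was 5 (without KO replicate 3) to 38 (without WT replicate 1). Without KO replicates 1, 2, 4 or 5 it was 8, 14, 8 or 9, and without WT replicates 2, 3 or 4 it was 10, 18 or 19. Nucb2 differed by -1.609 in the deeper libraries (adjusted p = 0.116) and by -1.577 with the replicate block (adjusted p = 0.0515), past the threshold in neither. Replicate numbers showed no sign of pairing libraries, with correlations of deviations between same-numbered libraries of -0.02 to 0.02.

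The Mrpl median was 0.016 after total scaling and -0.136 in the shallower libraries, which hold 1 KO library and gave no test. The Mrps median was -0.076 after total scaling and -0.091 after total scaling without Rn45s. The median of all genes was 0.021 in the main fit, and 0.096 and 0.081 in these 2 scalings. Signs turned for these named genes, none past the test. After total scaling Mrpl42 was at 0.034, Mrps14 at 0.027 and Mrps18a at 0.023, and without Rn45s at 0.019, 0.012 and 0.008. In the deeper libraries Mrpl1 was at 0.009, Mrpl33 at -0.013, Mrpl47 at -0.056 and Mrps14 at 0.003. In the shallower ones Mrpl10 was at -0.347, Mrpl42 at 0.039, Mrps24 at -0.15, Mrps30 at 0.121 and Mrps34 at 0.227. Leaving out 1 library gave -0.033 (without KO replicate 1) to 0.088 for Mrpl33, -0.085 to 0.003 (without WT replicate 3) for Mrpl42, -0.242 (without WT replicate 1) to 0.378 for Mrps24, which was also at -0.097 without KO replicate 4, and -0.626 to 0.025 (without KO replicate 2) for Mrps30. The cause was not tested. The smallest value of a member stood for 51 reads. Counting error was largest in the lowest range, 5.03% at means of 100 to 1000, beside a median spread of 34.6% in the members there. The planned count-model (quasi-likelihood) fit and limma-voom with TMM factors were not run, and limma-voom with median-ratio factors was added after seeing the data, as were both total scalings, the shallower libraries alone and the subunits by structure.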
